A study of Mus musculus with 12 samples.

Results

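Lysosome and autophagy genes were followed through muscle differentiation of C2C12 cells, a mouse myoblast line whose cells fuse into multinucleate myotubes. The set holds 37 genes, taken by symbol from a fixed list that was chosen with earlier results of these data known. Each symbol matched exactly 1 of the 55385 genes in the C2C12 count table. All 37 passed the filter on low counts, as did 15932 genes of the whole table. Total RNA was sequenced from 3 libraries of undifferentiated control cells and 3 libraries of cells differentiated into myotubes for 7 days. Both groups are the same single cell line, and the labels name no genotype, transgene or added agent. Per the labels' protocols the libraries were made with a stranded kit that removes ribosomal RNA. Separate cultures are not mentioned in the labels, and p-values therefore refer to the variation among these libraries, which may be technical. The small RNA libraries of embryonic stem cells in the same series hold no gene of the set and were not used here.

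Lysosomes are acidic organelles in which proteases, glycosidases and lipases break down material delivered by endocytosis and by autophagy. In autophagy a double membrane closes around cytoplasm or a damaged organelle, guided by ubiquitin-like ATG8 proteins on the membrane and by receptors that bind cargo, and then fuses with a lysosome. Many lysosomal genes carry a promoter element, the CLEAR element, that is recognised by the transcription factors TFEB and TFE3. In skeletal muscle the route is known for turnover of mitochondria and glycogen, and inherited loss of acid alpha-glucosidase or of LAMP2 causes vacuolar muscle disease.

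Gene counts per library ranged from 18335785 to 54083215. Summed levels of the 6 myotube markers Myog, Ckm, Acta1, Myh3, Tnnt3 and Ttn ran from 109.6 to 239 CPM in myoblasts and from 8239 to 19861 CPM in myotubes, lowest there in replicate 1. CPM are counts scaled to library size after TMM scaling, a correction for library composition. Among 5 myoblast markers, summed at 662 to 1068 and 1242 to 3096 CPM, Myf5 fell, Des rose, and Myod1, Cdh15 and Vcam1 were not called. Of 5 fibroblast markers, Pdgfra, Dcn, Lum and Col1a1 rose and Thy1 had 0 counts, with a summed level of 34.2 to 44.6 CPM in myoblasts and of 2451, 591 and 658 CPM in myotube replicates 1, 2 and 3. Of 9 macrophage and osteoclast markers, with sums of 4.55 to 9.81 CPM in myoblasts and 4.70 to 10.7 CPM in myotubes, most counts were of Cd14. Calcr had 0 counts in every library, Ptprc and Adgre1 had 0 in myotubes, and the scarce Csf1r was called higher. Aif1 and Itgam, too scarce to be tested, had 0 counts in myoblasts. In myotube replicates 1, 2 and 3 they had 9, 3 and 3 counts and 0, 2 and 4 counts. Summed levels of the 5 adipocyte and 4 endothelial markers stayed under 1 CPM in every library, with Adipoq and Cidec at 0. In bulk RNA, fewer cells of a type and less RNA per cell cannot be told apart, and the part that these markers play in the changes below was not tested.

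Of the 37 lysosome and autophagy genes, 13 rose and 2 fell in myotubes, while 22 were not called (edgeR quasi-likelihood test, Benjamini-Hochberg adjusted p under 0.05 over all tested genes). The 13 make up 35.1% of the set, beside 20.5% of all tested genes that were called higher, and the 2 make up 5.41%, beside 19.6% of all tested genes called lower. In either direction 15 of 37 were called, a share near the 40.1% of all genes, so that the set stood apart in the split between rises and falls and not in how many genes were called. Because the members were chosen with earlier results of these data known, the split is a description and was not tested. The median log2 fold change was 0.35 over the set and 0.06 over all tested genes. In 21 of the 37 genes (56.8%) the 3 myoblast and 3 myotube values did not overlap, beside 55.9% of all tested genes. In 19 of the 21 the myotube values were the higher ones and in 2 the lower ones, beside 28.7% and 27.2% of all tested genes. Scaling by library size alone shifted the median of all genes by -0.13 on the log2 scale and moved the median of the set to 0.23, with 12 genes higher and 2 lower. The set took 0.524% ± 0.0731 of all counts in myoblasts and 0.624% ± 0.0527 in myotubes (SD, n = 3).

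**Figure D1:**
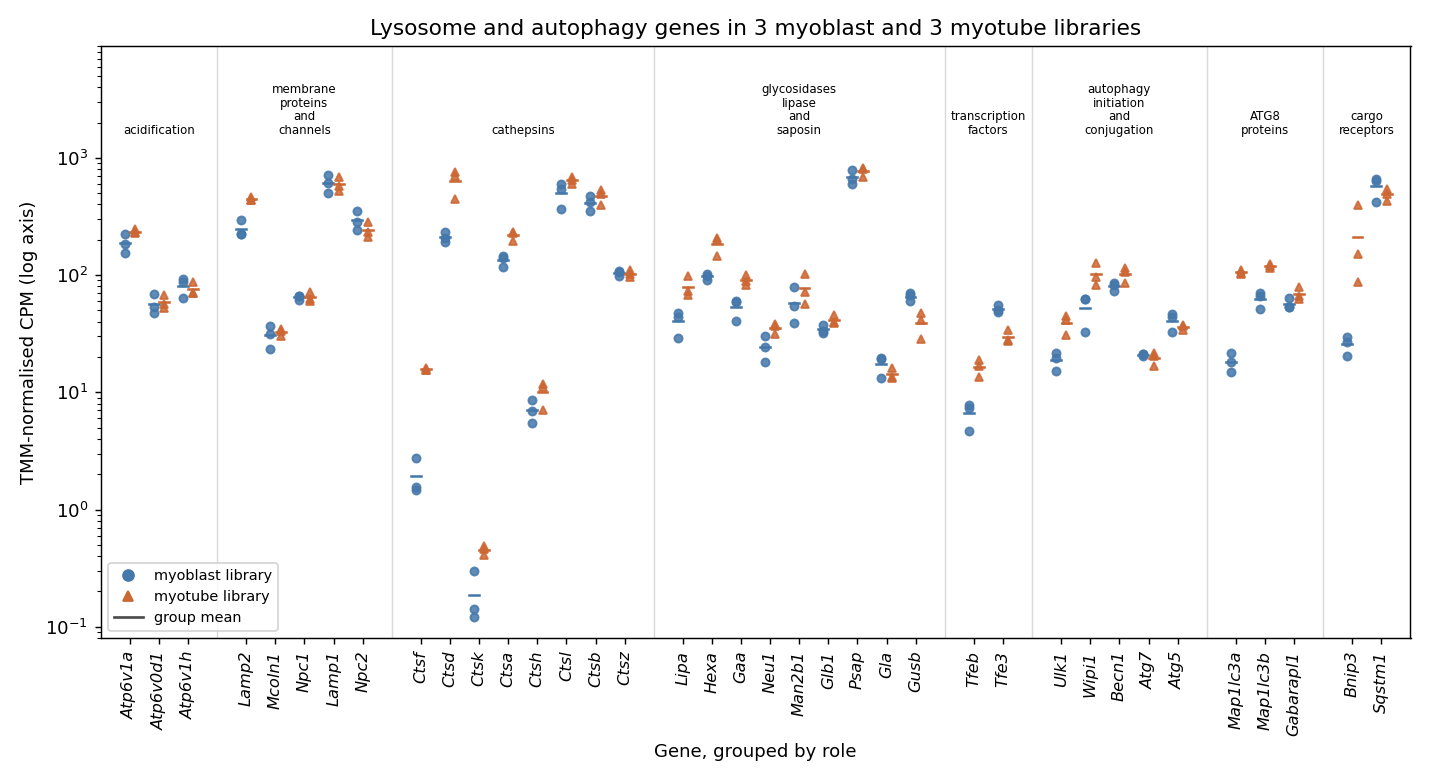
TMM-normalised CPM on a log axis for the 37 genes, grouped by role, with circles for 3 myoblast libraries, triangles for 3 myotube libraries and bars for group means. Map1lc3a, Ctsf and Bnip3 show the widest separation, and Bnip3 the widest spread among myotubes, from 87.0 to 398 CPM.

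The transcription factor genes moved in opposite directions. Tfeb (ENSMUSG00000023990.18, chr17:47737037-47792416) was at 7.79, 7.35 and 4.69 CPM in myoblasts and at 13.5, 18.9 and 16.9 CPM in myotubes. All 3 myotube values exceeded the highest myoblast value, and the log2 fold change was 1.31 ± 0.27 (SE, edgeR adjusted p = 0.00613). Tfe3 (ENSMUSG00000000134.17, chrX:7762530-7775202) stood at 50.0, 55.4 and 48.2 CPM before and at 33.7, 27.8 and 27.4 CPM after differentiation. It fell by 0.79 ± 0.17 on the log2 scale (SE, edgeR adjusted p = 0.00727), again with no overlap. Per kilobase of gene length, Tfeb transcripts were at 0.254, 0.217 and 0.159 times the level of Tfe3 in the myoblast libraries and at 0.653, 1.11 and 1.01 times in the myotube libraries. Per kilobase the 2 factors were thus near parity in myotube replicates 2 and 3, while Tfe3 exceeded Tfeb in myotube replicate 1 and in all myoblasts. By CPM, Tfe3 exceeded Tfeb in every library. The parity rests on the deposited lengths, 5669 bases for Tfeb and 9261 for Tfe3, whose definition is not given. The ratio therefore compares libraries better than it compares the genes. Mitf, the gene of another factor of the same family, was called higher as well (8.65 ± 1.48 to 18.4 ± 3.45 CPM, SD, n = 3; log2 fold change 1.09 ± 0.23, SE). Tfec, the remaining family member, had too few counts to be tested.

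Promoters of the set were searched for the letters these factors are known to bind. RefSeq promoters (build GRCm38.p6, the assembly behind mm10, from 250 bases before to 50 bases after each gene start) were found for 31 of the 37 genes, leaving Atp6v1h, Npc1, Ctsb, Ctsh, Becn1 and Map1lc3a. The E-box CACGTG, which reads the same on both strands, was present in promoters of 14 of the 31 genes (45.2%), beside 8.09% of 27025 genes in the promoter table. The longer core GTCACGTG, searched on both strands and always holding an E-box, was present in 8 genes (25.8%) beside 2.55% of all genes. These were Lamp1, Ctsd, Ctsa, Atp6v0d1, Glb1, Mcoln1, Atg7 and Gla. Of the 8, only Ctsd and Ctsa were among the genes that rose, and 6 were not called. The core was thus found in 2 of 12 genes called higher with a promoter in the table (16.7%), in 0 of 2 called lower and in 6 of 17 not called (35.3%). A match is a description of letters and not of binding. The 27025 genes were not limited to those expressed in these cells, whereas all 37 members passed the filter on low counts. The shares thus come from unlike groups of genes, and promoters of the tested genes alone were not compared. Neither Tfeb nor Tfe3, with 3 and 2 listed promoters, held an E-box in these windows.

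The 6 genes with the core that had the highest mean CPM are shown because they place the same element in front of genes that rose and genes that were not called. Each run is printed 5′ to 3′ on the gene's own strand, with the core, or its reverse complement CACGTGAC, in capitals. Ctsd, which rose, has the core in 2 places, 245 and 98 bases before its start, and the nearer is printed. Ctsa has 2 cores in 1 of its 2 listed promoters, 14 bases before and 6 bases after that start, and none in the other, and the first of them is printed. In Mcoln1, a calcium channel gene that was not called, the stretch holds 2 cores, and the Lamp1 stretch holds 3 further E-boxes in lower case.
Ctsd, chr7:142387882-142387961, minus strand: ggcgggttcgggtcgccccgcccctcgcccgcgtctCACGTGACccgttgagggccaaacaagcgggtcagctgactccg
Ctsa, chr2:164833723-164833772, plus strand: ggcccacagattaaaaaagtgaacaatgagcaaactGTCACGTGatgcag
Lamp1, chr8:13159097-13159160, plus strand: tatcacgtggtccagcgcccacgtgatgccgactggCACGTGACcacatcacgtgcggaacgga
Mcoln1, chr8:3500410-3500489, plus strand: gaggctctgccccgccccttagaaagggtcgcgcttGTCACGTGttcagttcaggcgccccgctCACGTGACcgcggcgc
Glb1, chr9:114400992-114401071, plus strand: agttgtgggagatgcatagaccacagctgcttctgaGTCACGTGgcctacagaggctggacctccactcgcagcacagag
Atp6v0d1, chr8:105566051-105566080, minus strand: gccctactgcgGTCACGTGagacgcggtgc

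None of the 3 genes of the proton pump in the set was called (edgeR, 0 of 3 also with DESeq2 and limma-voom, and 0 of 3 at an unadjusted p under 0.05). Of all tested genes, 40.1% were called. The V-ATPase pumps protons into the lysosome, with a membrane part and a cytosolic part. Atp6v1a, its catalytic subunit, was at 185, 225 and 154 CPM in myoblasts and at 228, 245 and 232 CPM in myotubes. These values did not overlap, yet the log2 fold change of 0.32 ± 0.19 (SE) gave an edgeR adjusted p of 0.200. Atp6v0d1, of the membrane part, had a log2 fold change of 0.06 ± 0.20 and Atp6v1h, a regulatory subunit, of -0.08 ± 0.20 (SE), both with overlapping groups.

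Among 5 genes of lysosomal membrane and cholesterol export proteins, Lamp2 alone was called, as a rise (20%, near the 20.5% of all tested genes called higher). Lamp2 (ENSMUSG00000016534.15, chrX:38399647-38456460) encodes a major glycoprotein of the lysosomal membrane, and 1 of its isoforms serves as the receptor of chaperone-mediated autophagy. It was at 222, 295 and 223 CPM in myoblasts and at 440.1, 440.5 and 465 CPM in myotubes. The myotube values lay close together and above all myoblast values, with a log2 fold change of 0.86 ± 0.19 (SE, edgeR adjusted p = 0.00861). Its paralog Lamp1 was at 498, 716 and 615 CPM before and 517, 689.8 and 576 CPM after, with a log2 fold change of -0.04 ± 0.22 (SE). Npc1 and Npc2, which pass cholesterol out of the lysosome, had log2 fold changes of -0.01 ± 0.15 and -0.27 ± 0.21, and Mcoln1, a calcium channel of the membrane, of 0.08 ± 0.20 (SE). In all 4 genes the groups overlapped. Isoforms were not separated by the counting, so the values of Lamp2 are sums over its splice forms.

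Of 8 cathepsin genes 3 rose (37.5%, beside 20.5% of all tested genes) and 0 fell (beside 19.6%), and 5 were not called. Ctsd (ENSMUSG00000007891.16, chr7:142375910-142387827), the main aspartic protease of the lysosome, rose from 206, 234 and 190.3 CPM to 442, 754 and 693 CPM. All 3 myotube libraries lay above the myoblasts, replicate 1 least so, and the log2 fold change was 1.58 ± 0.25 (SE, edgeR adjusted p = 0.0019). Ctsf, a cysteine cathepsin, went from 1.55, 2.75 and 1.45 CPM to 15.5, 16.3 and 15.4 CPM. This was a change of 3.02 ± 0.31 on the log2 scale (SE, edgeR adjusted p = 0.000343) with very even myotube values, at a level still below most of the set. Ctsa, a serine carboxypeptidase that also protects the enzymes encoded by Neu1 and Glb1, rose from 146, 140.1 and 118 CPM to 231, 227 and 195 CPM, a log2 fold change of 0.69 ± 0.17 (SE, edgeR adjusted p = 0.0143). Leaving out myoblast replicate 2, myoblast replicate 3 or myotube replicate 2 ended its call (adjusted p = 0.0528, 0.064 and 0.06).

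The most abundant cysteine cathepsins did not pass the test. Ctsl was at 369, 542 and 593 CPM in myoblasts and at 647, 681 and 594 CPM in myotubes, narrowly without overlap (log2 fold change 0.35 ± 0.23, SE, edgeR adjusted p = 0.243). Ctsb, at 350.3 to 475 CPM before and 395 to 535 CPM after, overlapped between groups, as did Ctsz, at 95.8 to 109 CPM over all 6 libraries. Ctsh was at 5.49 to 8.64 CPM in myoblasts and at 7.11 to 11.8 CPM in myotubes. Ctsk, known as the collagen-degrading protease of osteoclasts, had 3 to 18 counts per library and was the scarcest gene of the set. Its log2 fold change of 1.19 ± 0.52 (SE) gave an edgeR adjusted p of 0.0987, and without myoblast replicate 1 the call was made (1.77, adjusted p = 0.0337). Together the cathepsins took 0.143% ± 0.0156 of all counts in myoblasts and 0.201% ± 0.0277 in myotubes (SD, n = 3).

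Among 9 genes of glycosidases, the acid lipase and the saposin precursor, Hexa, Gaa and Lipa rose, Gusb fell, and 5 were not called. The shares were 33.3% higher and 11.1% lower, beside 20.5% and 19.6% of all tested genes. Gaa encodes acid alpha-glucosidase, which digests glycogen inside the lysosome. It was at 60.0, 58.5 and 40.7 CPM in myoblasts and at 89.5, 99.9 and 82.4 CPM in myotubes, without overlap, for a log2 fold change of 0.77 ± 0.20 (SE, edgeR adjusted p = 0.0164). The call was lost with library size scaling (adjusted p = 0.0528), without myoblast replicate 3 (0.0556) and without myotube replicate 2 (0.0639). Hexa, a subunit of beta-hexosaminidase, rose from 90.8, 103 and 98.4 CPM to 145, 205 and 197 CPM (log2 fold change 0.91 ± 0.19, SE, edgeR adjusted p = 0.00661). Lipa, the lipase that releases fatty acids and cholesterol, rose from 44.2, 47.8 and 29.2 CPM to 97.9, 67.2 and 73.5 CPM (0.98 ± 0.24, adjusted p = 0.0136). Replicate 1 was the lowest of the myotubes for Hexa and the highest for Lipa.

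Gusb, the gene of beta-glucuronidase, went the other way, from 67.0, 69.9 and 59.7 CPM to 28.5, 47.7 and 41.6 CPM. It fell by 0.74 ± 0.22 on the log2 scale (SE, edgeR adjusted p = 0.0267) with no overlap. Leaving out myoblast replicate 1, myoblast replicate 2 or myotube replicate 3 ended this call (adjusted p = 0.054, 0.086 and 0.0669). Neu1, a sialidase gene, was at 30.3, 24.4 and 18.01 CPM before and 36.5, 37.9 and 31.6 CPM after. Its log2 fold change of 0.54 ± 0.22 (SE) was not called (edgeR adjusted p = 0.0804). A fit blocked on replicate number (0.0448) and a fit leaving out myoblast replicate 1 (0.0346) did call it. Glb1, the beta-galactosidase gene, did not overlap either and had a log2 fold change of 0.26 ± 0.16 (SE, edgeR adjusted p = 0.224). Man2b1 (0.41 ± 0.31), Psap (0.17 ± 0.21) and Gla (-0.30 ± 0.22, SE), which encode an alpha-mannosidase, the precursor of the saposin activators and alpha-galactosidase A, overlapped between groups.

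**Figure D2:**
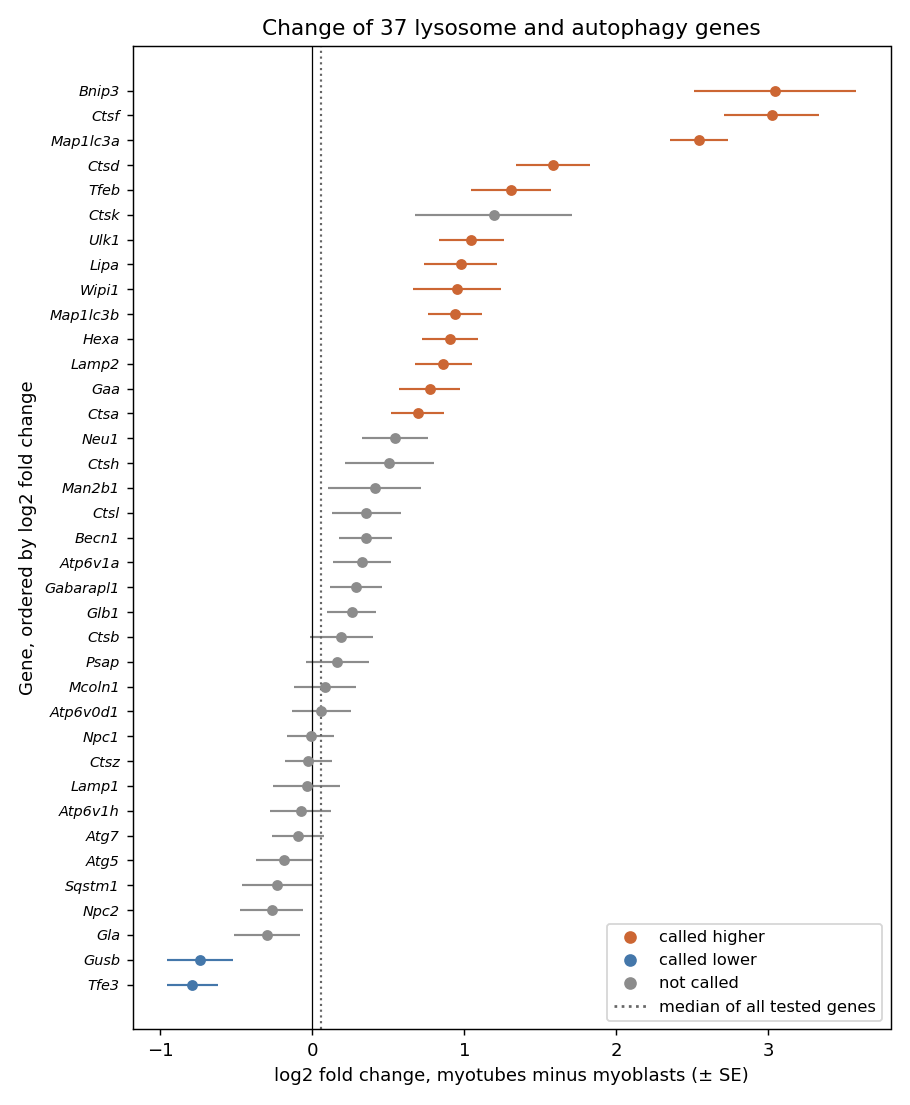
Log2 fold change of each of the 37 genes, myotubes minus myoblasts, with its standard error, ordered by size and coloured by call. Bnip3, Ctsf and Map1lc3a stand above 2.5, Tfe3 and Gusb are the called falls, and the dotted line is the median of all tested genes at 0.06.

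Autophagy is started by the ULK1 kinase and by the lipid kinase complex that holds Beclin 1. Of 5 genes of initiation and conjugation 2 rose (40%, beside 20.5% of all tested genes) and 0 fell (beside 19.6%). Ulk1 was at 15.2, 19.8 and 21.6 CPM in myoblasts and at 44.6, 30.9 and 41.2 CPM in myotubes, a log2 fold change of 1.05 ± 0.22 with no overlap (SE, edgeR adjusted p = 0.00651). Wipi1, whose product binds the lipid made by that complex, rose from 32.6, 62.6 and 62.8 CPM to 81.9, 128 and 96.3 CPM (0.95 ± 0.29, SE, edgeR adjusted p = 0.0311). This call ended on leaving out any myoblast library, with adjusted p of 0.05001, 0.057 and 0.0529 for replicates 1 to 3. It also ended on leaving out the second or the third myotube library (0.1003 and 0.0604). Becn1, at 73.7, 85.4 and 82.2 CPM before and 86.2, 116 and 106 CPM after, was separated by a narrow margin and not called (0.35 ± 0.17, SE, edgeR adjusted p = 0.139). Leaving out myotube replicate 1 led to a call (0.44, adjusted p = 0.0486). Atg5 and Atg7, which act in the attachment of ATG8 proteins to lipid, had log2 fold changes of -0.19 ± 0.18 and -0.09 ± 0.17 (SE) with overlapping groups. Atg7 stayed between 16.8 and 21.7 CPM over the 6 libraries.

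Of 3 ATG8 genes, Map1lc3a and Map1lc3b rose (66.7%, beside 20.5% of all tested genes called higher), and Gabarapl1 was not called. Map1lc3a (ENSMUSG00000027602.9, chr2:155276364-155278073) was at 18.1, 21.4 and 14.8 CPM in myoblasts and at 110.0, 105 and 103 CPM in myotubes. The groups were far apart and even within themselves, with a log2 fold change of 2.55 ± 0.19 (SE, edgeR adjusted p = 0.000124). Map1lc3b was at 66.1, 70.3 and 51.2 CPM before and at 118, 125 and 116 CPM after, also with no overlap (0.94 ± 0.18, SE, edgeR adjusted p = 0.00434). Gabarapl1 was at 53.1, 63.7 and 53.1 CPM and then at 78.8, 65.7 and 63.0 CPM (0.29 ± 0.17, SE, edgeR adjusted p = 0.206). By CPM, Map1lc3b was thus the larger of the LC3 pair in every library, but per kilobase Map1lc3a was, since its deposited length of 1181 bases is well under the 7517 bases of Map1lc3b. Whether those 7517 bases are all in the transcripts of these cells was not tested, so the ratio per kilobase compares libraries better than it compares genes.

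The cargo receptor gene Bnip3 rose, and Sqstm1 was not called. Bnip3 (ENSMUSG00000078566.8, chr7:138890836-138909506) encodes an outer-membrane receptor that directs mitochondria into autophagosomes. It was at 26.8, 29.8 and 20.4 CPM in myoblasts and at 398, 87.0 and 152 CPM in myotubes. Every myotube value was far above the myoblasts, but replicate 1 was several times the other two, and the log2 fold change of 3.05 ± 0.53 (SE, edgeR adjusted p = 0.00345) fell to 2.19 without that library (adjusted p = 0.000211). Among the 3 myotube libraries, replicate 1 also had the highest summed fibroblast markers, 2451 CPM against 591 and 658, and the lowest summed myotube markers. Sqstm1, a receptor for ubiquitin-tagged cargo that is itself degraded by autophagy, was at 665, 630.4 and 419 CPM before and at 431, 542 and 489.5 CPM after (-0.23 ± 0.23, SE, edgeR adjusted p = 0.452). Its 3 myotube values lay inside the myoblast range.

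Related genes were compared within each library as log2 ratios of levels per kilobase, so that scaling cancels. With 3 libraries against 3 the smallest exact two-sided permutation p is 0.1, and all 5 pairs reached it, since the groups were separate in each (adjusted p = 0.1 over the 5 pairs). Map1lc3a over Map1lc3b went from 0.88 ± 0.08 to 2.49 ± 0.08 (SD, n = 3), a difference of 1.61. The ratio of Tfeb to Tfe3 went from -2.28 ± 0.34 to -0.15 ± 0.41, and that of Lamp2 to Lamp1 from -3.14 ± 0.15 to -2.23 ± 0.22 (SD, n = 3). Bnip3 over Bnip3l, its paralog and also a mitophagy receptor, went from -0.84 ± 0.41 to 1.68 ± 0.82 (SD, n = 3). Bnip3l itself was at 79.0 ± 19.9 and 93.6 ± 19.3 CPM (SD, n = 3) and was not called. Gabarapl1 over Gabarap moved the other way and by less, from -1.61 ± 0.11 to -1.89 ± 0.10 (SD, n = 3), with Gabarap at 159.5 ± 24.5 and 237 ± 46.0 CPM and not called (edgeR adjusted p = 0.0576).

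**Figure D3:**
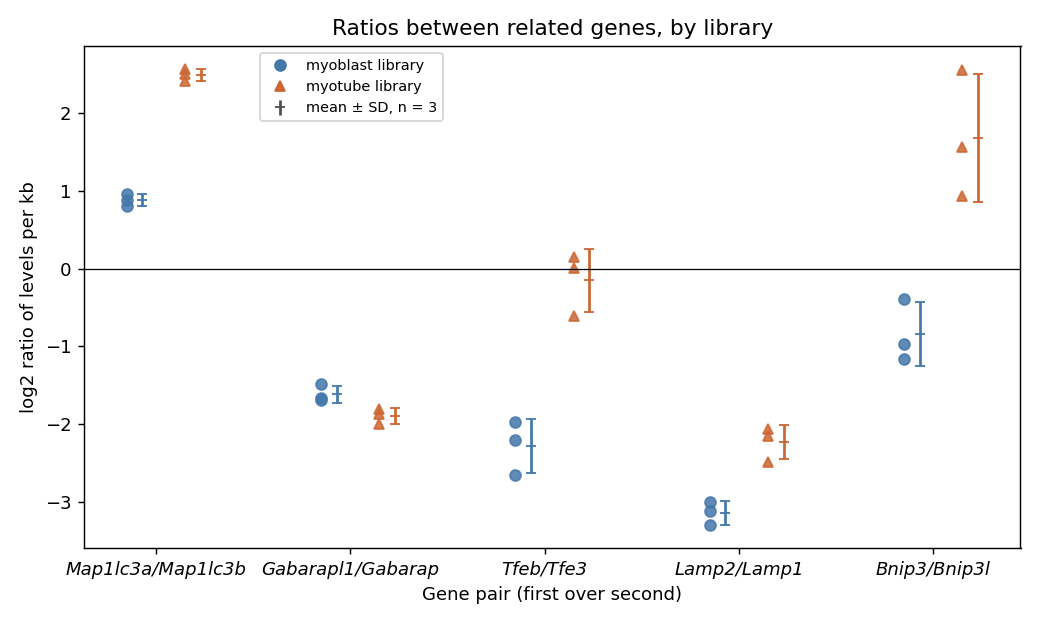
Log2 ratio of levels per kilobase for 5 pairs of related genes, with 1 point per library and the mean with SD beside it (n = 3 per group). In 4 pairs the first gene gains on the second in myotubes, and in Gabarapl1 over Gabarap it loses slightly. Zero marks equal levels per kilobase of deposited length.

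The order of levels within the set, per kilobase and with the deposited lengths of 1181 to 11317 bases, was partly rearranged. By group mean Psap was first in both groups, at 249 ± 36.4 in myoblasts and 279.7 ± 26.3 in myotubes (SD, n = 3, CPM per kilobase). In myoblasts it was followed by Lamp1 (228 ± 40.9), within its spread of Psap, then by Sqstm1 (170.4 ± 39.6), and further down by Ctsd (89.4 ± 9.40) and Ctsl (77.2 ± 18.1). In myotubes Ctsd was second by group mean at 268 ± 70.4, within its spread of both Psap and Lamp1 (222 ± 32.9). Within single libraries Psap was first in every myoblast library. Among the myotube libraries it was first only in replicate 1, and Ctsd was first in replicates 2 and 3. Without myotube replicate 1 the mean was 308 for Ctsd and 274 for Psap. Ctsd made up 6.52% of the summed level of the set in myoblasts and 14.3% in myotubes. Map1lc3a moved from place 16 to place 8, and Gusb from 17 to 26. Bnip3 moved from place 21 to place 6 by its mean of 93.7 ± 72.4 (SD, n = 3), but it stood at 176, 38.4 and 67.2 in the 3 myotube libraries, which put it at places 4, 14 and 10 within them. Without myotube replicate 1 its mean was 52.8, at place 10. Ctsk was last in both.

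Further genes of the pathway were read from 9 lists that hold none of the 37, with 144 tested genes in all. These lists were also chosen with earlier results known. Of these 49 were called higher (34%) and 4 lower (2.78%), with a median log2 fold change of 0.40, beside 20.5% and 19.6% of all genes. A fit blocked on replicate number gave 54 higher and 7 lower. With library size scaling 32 were higher and 7 lower, so that the higher share of the called genes went from 92.5% to 82.1%, and leaving out myoblast replicate 3 or myotube replicate 2 or 3 gave 32, 31 and 31 higher. Other hydrolases and their activators, the longest list, had the most calls by number, with 14 of 29 higher (48.3%) and 0 lower. These shares stand beside 20.5% and 19.6% of all genes. With library size scaling 7 hydrolase genes were higher. Leaving out myoblast replicate 2 or 3 gave 8 and 9 of them, and leaving out myotube replicate 2 or 3 gave 8 each. Ctso, another cysteine cathepsin, rose from 3.90 ± 1.34 to 26.7 ± 8.77 CPM (SD, n = 3; log2 fold change 2.77 ± 0.34, SE). Gm2a, an activator of ganglioside breakdown, rose by 1.79 ± 0.30 (SE), and both were highest in myotube replicate 1, at 36.4 and 73.3 CPM. Of 17 other V-ATPase subunits 6 were higher (35.3%, beside 20.5% of all genes) and 0 lower (beside 19.6%). Among the 6 were Atp6v1e1 (59.7 ± 7.49 to 145 ± 37.0 CPM, SD, n = 3; 1.28 ± 0.23, SE) and Atp6v1g1 (0.81 ± 0.23). Leaving out myoblast replicate 3 or myotube replicate 2 or 3 left 3, 2 and 3 subunits called. Atp6v1g1 lost its call on leaving out myoblast replicate 1 or 3 or myotube replicate 2 or 3 (adjusted p of up to 0.0968).

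Of 17 other membrane proteins and transporters 6 were higher (35.3%, beside 20.5% of all genes) and 0 lower (beside 19.6%). Ctns, the cystine exporter, rose from 10.3 ± 1.94 to 32.5 ± 3.90 CPM (SD, n = 3; 1.65 ± 0.21, SE), and Slc38a9, an amino acid sensor of the lysosomal membrane, by 1.36 ± 0.19 (SE). The 6 genes that sort enzymes to the lysosome split, with 3 higher (50%) and 2 lower (33.3%), beside 20.5% and 19.6% of all genes. Igf2r, the large mannose 6-phosphate receptor, rose from 107 ± 26.9 to 254 ± 40.0 CPM (SD, n = 3; 1.25 ± 0.23, SE) and the sorting receptor gene Sort1 by 2.67 ± 0.36 (SE). M6pr, the small mannose 6-phosphate receptor, fell from 159 ± 32.7 to 94.3 ± 13.5 CPM and Gnptab, which makes the mannose 6-phosphate tag, from 61.5 ± 4.30 to 30.9 ± 3.24 CPM (SD, n = 3). Their log2 fold changes were -0.75 ± 0.21 and -0.995 ± 0.164 (SE, edgeR adjusted p = 0.0228 and 0.00244). M6pr lost its call on leaving out myoblast replicate 2 or 3 or myotube replicate 3 (adjusted p of up to 0.0793), so that 1 fall was left in each of those fits.

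Among 19 further MiT/TFE and lysosomal mTORC1 genes 4 were higher (21.1%, near the 20.5% of all genes) and 2 lower (10.5%, beside 19.6% of all genes). Counts were 1 and 4 with library size scaling, 4 and 4 with the replicate block, and 6 and 2 with DESeq2 or a mean count of at least 50. Leaving out myoblast replicate 2 or 3 gave 1 higher and 1 lower, leaving out myotube replicate 2 gave 1 and 3, and leaving out myotube replicate 3 gave 1 and 0. Mtor, the growth kinase itself, was at 80.7 ± 8.48 and 127 ± 26.9 CPM (SD, n = 3; 0.65 ± 0.20, SE, edgeR adjusted p = 0.0342), but its call was lost with the replicate block (0.0504) and with library size scaling (0.0831). It also ended on leaving out myoblast replicate 2 or 3 or myotube replicate 2 or 3 (adjusted p from 0.107 to 0.139). Mlst8, a subunit of the same complex, and Fnip2, a partner of folliculin, changed by -0.61 ± 0.18 and -0.77 ± 0.18 (SE). The call of Mlst8 (edgeR adjusted p = 0.0268) ended on leaving out myoblast replicate 2 or 3 or myotube replicate 3 (up to 0.085), and that of Fnip2 (0.0113) on leaving out myotube replicate 3 (0.0532).

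Autophagy lists had calls upwards only. The shares below stand beside 20.5% of all genes called higher and 19.6% called lower. In the ULK1 and VPS34 complexes 4 of 11 were higher (36.4%) and 0 lower, with Atg13 at 1.12 ± 0.20 and Rb1cc1 at 0.93 ± 0.21 (SE), both partners of ULK1. In membrane formation and ATG8 conjugation 5 of 18 were higher (27.8%) and 0 lower. Atg4a, a protease that trims ATG8 proteins, was at 1.30 ± 0.21 and Wdr45 at 1.005 ± 0.261 (SE). Leaving out myoblast replicate 3 or myotube replicate 3 gave 3 higher, and in the first of these fits Wdr45 was no longer called (adjusted p = 0.0644). Of 14 further cargo receptor and mitophagy genes 5 were higher (35.7%) and 0 lower. Pink1, the kinase that marks damaged mitochondria, was at 17.3, 23.2 and 13.0 CPM in myoblasts and at 92.2, 118 and 110.3 CPM in myotubes (2.58 ± 0.24, SE, edgeR adjusted p = 0.000254). Calcoco1 was at 25.9, 29.5 and 18.8 CPM before and at 106, 131 and 148 CPM after (2.37 ± 0.23, SE, edgeR adjusted p = 0.000267). For both genes the groups were far apart, and replicate 1 was the lowest myotube library for both. In fusion of autophagosomes with lysosomes 2 of 13 tested genes were higher (15.4%, beside 20.5% of all genes) and 0 lower, namely the tethering genes Vps39 (1.07 ± 0.19) and Vps41 (0.59 ± 0.17, SE). The count of higher genes was 4 with a mean count of at least 50, 3 with the replicate block, and 1 with library size scaling and on leaving out myoblast replicate 3 or myotube replicate 2 or 3. Vps41 lost its call (edgeR adjusted p = 0.0249) with library size scaling (0.062) and on leaving out myoblast replicate 1 or 3 or myotube replicate 2 or 3 (up to 0.0984).

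**Figure D4:**
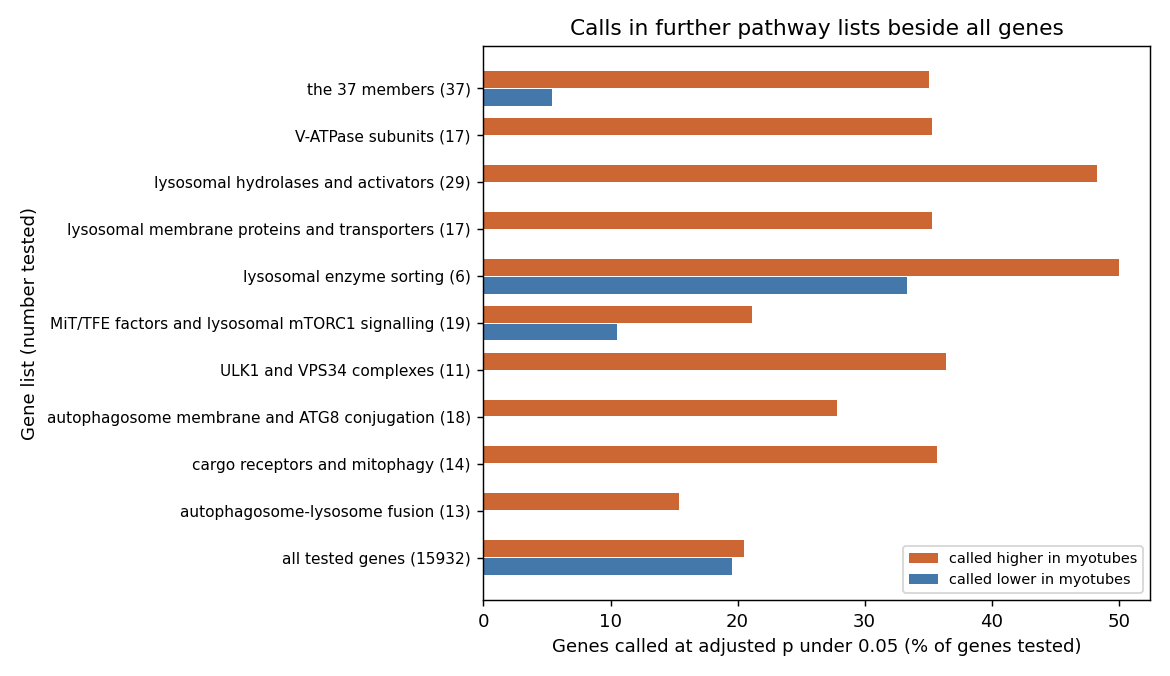
Percent of tested genes called higher (upper bar) or lower (lower bar) in myotubes for the 37 genes, 9 further pathway lists and all tested genes, with the number tested in brackets. Enzyme sorting, with 6 genes, has calls both ways, and autophagosome-lysosome fusion has 2 of 13 genes called higher (15.4%).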

How the data were processed

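The authors deposited raw counts per gene for the 6 C2C12 libraries, under GENCODE identifiers with symbols and lengths, per the file headers. Tools named in the submitters' processing notes, without roles, are STAR 2.5.1b, featureCounts 1.5.1, Salmon 0.12.0, DESeq2 1.18.1 and bcl2fastq, with build mm10. Strand setting and length definition are not given in the sources used here. Genes that overlap, lie antisense to each other or have near-identical copies are therefore uncertain. The counts as deposited were tested with edgeR 4.0.16 (R 4.3.3): filterByExpr by group, TMM scaling and the robust quasi-likelihood F-test without covariates, on the 6 libraries. Benjamini-Hochberg adjustment ran over all 15932 tested genes. On simulated data the fit recovered the sizes of the changes but missed many calls, mainly of the smaller changes. Far fewer genes were changed in the simulation than were called in the data, so its rate of missed calls does not carry over. A gene not called is still not shown to be unchanged. The standard error is |log2 fold change| over the root of F. Levels per kilobase are TMM-scaled CPM divided by deposited length. Alternatives were library size scaling, DESeq2 1.42.0, limma-voom (limma 3.58.1), no filter, a mean count of at least 50, a replicate block, and leaving out each library. No libraries of a group agreed within sampling noise (lowest chi-square per degree of freedom, 103).

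Deviations of same-numbered libraries from their group means correlated weakly, at 0.232, 0.189 and 0.17. Pairs of different numbers ran from -0.429 to 0.358, and the highest, myoblast replicate 3 with myotube replicate 2, exceeded every same-numbered pair. The correlations thus do not single out the same-numbered pairs. All same-numbered pairs lay over 0.1, so the replicate numbers of the labels, which do not say what they mark, were taken as a possible pairing. Members and lists were chosen with earlier results of these data known. Named genes were all 37 members and, per further list and direction, up to 2 called genes of largest fold change with mean log2 CPM of at least 3 and no overlap. Motifs were searched in RefSeq promoters.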

Additional observations from a re-analysis of the deposited data

How the results depend on the processing

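Of the 15 called members, 11 stayed called under each of the 12 alternatives, and Ctsa, Gaa, Gusb and Wipi1 did not. Members called higher numbered 12 to 14 under the 6 settings that keep all libraries and 10 to 14 without single libraries, and members called lower 2 and 1 to 2. The median log2 fold change of the set was 0.23 with library size scaling and 0.23 to 0.38 without single libraries. Signs turned in uncalled genes near 0. With library size scaling Atp6v0d1 was at -0.066 and Mcoln1 at -0.053. When genes needed a mean count of 50, Lamp1 was at 0.030, Npc1 at 0.055 and Ctsz at 0.039. Without single libraries Atp6v0d1 ranged from -0.081 to 0.21, Atp6v1h from -0.24 to 0.012, Lamp1 from -0.19 to 0.082, Mcoln1 from -0.093 to 0.23 and Npc1 from -0.10 to 0.019. The replicate block gave 14 members higher and 2 lower, adding Neu1 (0.57, adjusted p = 0.0448), and among further named genes it ended the call of Mtor. The block changed no other call of a member or of a gene named by the rule for the further lists. For the 9 further lists together, library size scaling gave 32 higher and 7 lower against 49 and 4, the block 54 and 7, and single libraries left out 31 to 49 and 1 to 6. By list, counts moved by over 1.5 times with library size scaling for hydrolases (14 to 7 higher), mTORC1 genes (4 to 1 higher, 2 to 4 lower) and fusion (2 to 1 higher), and with no filter for mTORC1 genes (2 higher). The mean count of 50 gave 8 higher in conjugation against 5 and 4 in fusion against 2, and the block 4 lower in mTORC1 genes and 1 lower in membrane proteins against 0. Over single libraries left out, the counts of higher genes ran from 2 to 9 for V-ATPase subunits, 8 to 11 for hydrolases, 1 to 4 for mTORC1 genes, 3 to 5 for conjugation and 1 to 2 for fusion, and of lower genes from 1 to 2 for sorting and 0 to 3 for mTORC1 genes. The cause of these moves was not tested. Ctsk, with 3 to 18 counts per library, was the member most limited by depth.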

Other observations

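Ctsc and Atp6v1c2, genes of the 9 further lists, had larger log2 fold changes than the 37 members but stood below the level required for naming, and they are given here after their values were seen. Ctsc, a dipeptidyl peptidase of the lysosome, had 2, 2 and 3 counts in the myoblast libraries and 95, 121 and 75 in the myotube libraries (log2 fold change 5.92 ± 0.58, SE, edgeR adjusted p = 0.000273). Atp6v1c2, a V-ATPase subunit, had 3, 5 and 2 counts before and 70, 106 and 80 after (5.34 ± 0.54, adjusted p = 0.00031). At such low counts the fitted fold changes depend on the prior count of the fit.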
